A study of Homo sapiens with 16 samples.

Results

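The RNA exosome core subunits are the products of EXOSC1 to EXOSC10, and all 10 genes, taken by symbol from the 60107 genes in the count files, were found and passed the filter on low counts in every comparison. They were followed in cytoplasmic RNA of U2OS-TR cells, which are human osteosarcoma cells with a stably expressed tetracycline repressor. A clone of this line also holds an inducible ΔN-RNMT transgene, which encodes an inactive form of the cap methyltransferase RNMT that is kept in the cytoplasm, driven by a CMV promoter with tetracycline operators. It gave 5 uninduced libraries (Control) and 5 libraries from cells given 1 μg/ml doxycycline after 48 h of culture and collected 24 h later (Induced). The parental line without the transgene gave 3 untreated (No Dox) and 3 doxycycline-treated (With Dox) libraries, so it shows doxycycline without the transgene. The tetracycline repressor is shared by all 16 libraries, and the transgene line is 1 clone picked for high expression. The recorded protocol lists doxycycline for every library, and the groups used here follow the library titles.

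The exosome degrades RNA from its 3′ end and trims the ends of many stable RNAs. Its barrel is a ring of EXOSC4 to EXOSC9, which resemble bacterial RNase PH but have lost the catalytic residues in human cells. EXOSC1, EXOSC2 and EXOSC3 sit on the ring as a cap that binds the incoming RNA. EXOSC10 is a 3′ to 5′ exonuclease that joins the complex in the nucleus, and DIS3 or its cytoplasmic relative DIS3L supplies the main nuclease activity at the other end of the barrel. In the cytoplasm the SKI complex feeds mRNA into the barrel, including mRNA fragments left after endonuclease cleavage.

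RNMT methylates the cap that is added to the first transcribed base. The bases around the start sites are therefore shown for 8 members, taken from RefSeq's promoter table of GRCh38.p14. These 8 members had 9 windows, with a pair of starts for EXOSC3. EXOSC1 and EXOSC4 were absent from the table or left out of this selection. The start and motif counts below therefore do not cover EXOSC1 or EXOSC4, and they say nothing about the starts of these genes. Each line holds 30 bases of the coding strand read 5′ to 3′, and the first transcribed base is the capital.
EXOSC2 (chr9:130693745-130693774, forward strand): tcgcagctcccgactGagctgcgcctgcgc
EXOSC3 (chr9:37785050-37785079, reverse strand): gcgggtaccggaaacGgtgtttggtggagc
EXOSC3, other start (chr9:37785078-37785107, reverse strand): ggtgttggaagcggaGcggaagcggaaggc
EXOSC5 (chr19:41397345-41397374, reverse strand): ctgccaggcggaagtGacaactgcagccgc
EXOSC6 (chr16:70251926-70251955, reverse strand): accagtggatgcggcAgggcgttgggcgga
EXOSC7 (chr3:44976229-44976258, forward strand): ggaggggacgcgcgcAgatgacgtgcggct
EXOSC8 (chr13:37000771-37000800, forward strand): aggagcggcgcaggcGcagacgcgcgggcg
EXOSC9 (chr4:121801308-121801337, forward strand): ccgcgccttgatgacGtaattttcctgcgc
EXOSC10 (chr1:11099855-11099884, reverse strand): cccgtctcctcggccGacaagctctcgcga

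Every one of these 9 annotated starts is a purine, G or A, and the share of such starts over all promoters was not counted. A terminal oligopyrimidine (TOP) motif begins with C followed by a run of pyrimidines directly after the cap. With a run of at least 5 pyrimidines required after a starting C, 0 of the 8 members had such a start, against 4.07% of all 35116 promoters in the table. In the window of 250 bases before to 50 bases after the start, searched on both strands, GGGCGG was found in 7 of the 8 members and in 45.0% of all promoters. CCAAT was found in 4 members and 34.6% of all promoters, TATAAA in 1 member (EXOSC8) and 11.5%, and TGACGT in 2 members (EXOSC7 and EXOSC9) and 7.98%. AAGATGGC was found in 2 members (EXOSC2 and EXOSC8) and 2.89% of all promoters, GCATGCG in 1 member (EXOSC10) and 3.91%, and CCGGAAG in no member and 10.3%. These matches describe the annotated sequence and were not set against the counts.

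The libraries were made by QuantSeq REV, which counts 1 tag for each RNA next to its poly(A) tail. Gene counts per library were between 18991617 and 23251834 in Control, 12527183 and 20781875 in Induced, 1578749 and 3214808 in No Dox, and 1473286 and 2979789 in With Dox. The lines were sequenced at different facilities on different instruments, so line and sequencing cannot be told apart. RNMT, the gene from which the transgene was made, had 74.1 ± 22.3 CPM (tags per mega-count after TMM scaling; SD, n = 5) in Control and 345 ± 77.8 (SD, n = 5) in Induced. The log2 fold change of RNMT, 2.22, had a standard error of 0.23 and an adjusted p of 0.00806, its groups did not overlap, and tags from the transgene and the endogenous gene were not separated. In the parental line RNMT was at -0.42 on the log2 scale (standard error 0.39, adjusted p = 0.997). Of 5 mesenchymal markers, VIM, FN1, COL1A1 and SPARC were well detected and COL1A2 was at or near 0. The summed CPM of the 5 was 491.7 to 769.9 in Control and 660.03 to 1018 in Induced. VIM rose by 2.72-fold (165 to 448 CPM, adjusted p = 0.0182), with Control 5 its highest Control library as for EXOSC3 and EXOSC8. VIM was the only mesenchymal marker to pass. The log2 fold change was -0.45 for FN1 (adjusted p = 0.0680), 0.0003 for COL1A1 (adjusted p = 0.999) and 0.05 for SPARC (adjusted p = 0.826). Of 4 osteoblast markers, RUNX2 was detected and rose by 2.24-fold (adjusted p = 0.0175), ALPL reached at most 1.20 CPM and BGLAP and IBSP were at or near 0. Of 5 markers of epithelial, blood and endothelial cells, PTPRC and PECAM1 were at or near 0. The summed CPM of the 5, nearly all of it from KRT18, was 307 to 499.8 in Control and 189 to 300.1 in Induced. KRT18 fell to 0.580 of its Control level (adjusted p = 0.0175). The other epithelial markers did not fall. EPCAM was at 7.84 CPM in Control and 12.0 in Induced (adjusted p = 0.0772). CDH1, below the filter on low counts, was at 0.514 CPM in Control and 1.64 in Induced. MALAT1 and NEAT1 were taken as markers of nuclear RNA. MALAT1 was at 534 CPM in Control and 544 in Induced (adjusted p = 0.927). In the parental line it was at 726 ± 500 CPM in No Dox and 122 ± 4.28 in With Dox (SD, n = 3, adjusted p = 0.997). The difference of its log2 fold changes between the lines was 2.37 (adjusted p = 0.0405). NEAT1 had a log2 fold change of -0.44 in the transgene line (adjusted p = 0.0410) and -0.50 in the parental line (adjusted p = 0.997). The part of these markers in the results below was not tested.

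Among the 10 subunit mRNAs in the transgene line, 2 rose and 2 fell after induction, and 6 did not pass the test. EXOSC3 in the cap and EXOSC8 in the ring rose, by 2.48-fold and 2.03-fold. EXOSC4 in the ring fell to 0.551 of its Control level and EXOSC2 in the cap to 0.704. By position, the cap had 1 member higher, 1 lower and 1 not passing, the ring had 1 higher, 1 lower and 4 not passing, and EXOSC10 did not pass. Of all 13038 genes tested 39.8% passed, 20.0% higher and 19.8% lower, so the members' counts of 4 in 10, with 2 in each direction, were near the background. The median log2 fold change was 0.01 over the members and 0.04 over all genes. No member had groups that did not overlap, against 7.30% of all genes. The plot of CPM by library shows the overlap for each subunit. The counts come from bulk RNA, in which fewer cells of a kind and less RNA per cell cannot be told apart.

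**Figure D1:**
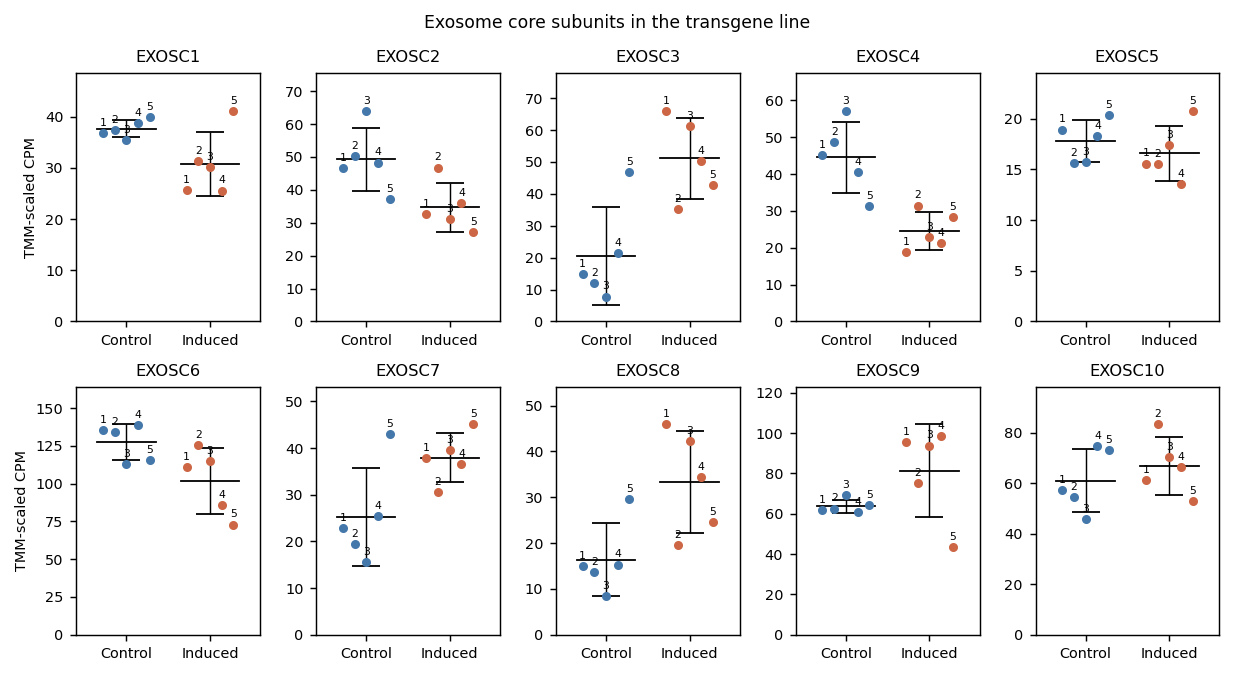
Each panel plots 1 exosome subunit in the transgene line as TMM-scaled CPM (vertical axis, from 0) for the 5 Control (blue) and 5 Induced (orange) libraries, numbered by replicate. Long horizontal lines are means and the bars with caps are ± 1 SD. Control 5 lies at 46.7 CPM for EXOSC3, above Induced 2 and Induced 5, and Induced 5 lies at 43.4 CPM for EXOSC9, below every other library.

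EXOSC3 binds RNA through its S1 and KH domains as part of the cap. The gene spans chromosome 9 from 37759234 to 37832117 (GRCh38, reverse strand), and its canonical transcript has 4 exons, 1813 nt and a GC content of 42.0%. EXOSC3 was at 14.8, 12.0, 7.76, 21.3 and 46.7 CPM in Control 1 to 5 and at 65.9, 35.3, 61.2, 50.3 and 42.7 CPM in Induced 1 to 5. Control 1 to 4 lay below every Induced library, and Control 5 lay within the Induced range, so 3 of the 5 Induced libraries exceeded all of Control. The means were 20.5 ± 15.4 CPM (SD, n = 5) and 51.1 ± 12.7 CPM (SD, n = 5), and the log2 fold change was 1.31 (standard error 0.41, 95% interval 0.41 to 2.22, adjusted p = 0.0297). Without Control 5 it was 1.85 (adjusted p = 0.000471). The call was lost when Control 1, 2 or 4 or Induced 1, 3 or 4 was left out, with log2 fold changes of 1.17 to 1.33 and adjusted p of 0.0554 to 0.0711. It was also lost with offsets for GC content (1.08, adjusted p = 0.0557) and with 1 surrogate variable (0.54, adjusted p = 0.113). EXOSC3 has 2 annotated pseudogenes, and tags matching more than 1 place did not enter the counts, so its level is uncertain to that extent.

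EXOSC8 is a ring subunit, encoded on chromosome 13 from 36998816 to 37025881 (forward strand) with 11 exons and a transcript GC content of 38.6%, the lowest of the members. It was at 15.05, 13.7, 8.43, 15.3 and 29.7 CPM in Control 1 to 5 and at 45.9, 19.6, 42.2, 34.3 and 24.5 CPM in Induced 1 to 5. Control 5 was again the highest Control library, above Induced 2 and Induced 5, and the other Control libraries lay below all of Induced. The means were 16.4 ± 7.90 CPM (SD, n = 5) and 33.3 ± 11.2 CPM (SD, n = 5), and EXOSC8 changed by 1.02 on the log2 scale (standard error 0.33, 95% interval 0.30 to 1.74, adjusted p = 0.0318). Without Control 5 the value was 1.33 (adjusted p = 0.00164). The call was lost without Control 1, 2, 3 or 4 or Induced 1, 3 or 4 (0.84 to 1.01, adjusted p 0.0574 to 0.0804), with GC offsets (0.65, adjusted p = 0.0864) and with 1 surrogate variable (0.33, adjusted p = 0.282). The last 300 nt of the EXOSC8 transcript overlap exons of SUPT20H on the opposite strand, and whether counting used strand is not given in the sources used here. SUPT20H had a log2 fold change of 0.09 (adjusted p = 0.672).

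EXOSC4, also a ring subunit, is encoded on chromosome 8 from 144078648 to 144080648 (forward strand) by 3 exons, and its transcript GC content of 64.0% was the highest of the members. EXOSC4 was at 45.1, 48.7, 57.1, 40.5 and 31.3 CPM in Control 1 to 5 and at 18.8, 31.4, 22.9, 21.2 and 28.3 CPM in Induced 1 to 5. The groups were apart except that Control 5, at 31.3 CPM, met Induced 2, at 31.4 CPM. The means were 44.5 ± 9.56 CPM (SD, n = 5) and 24.5 ± 5.21 CPM (SD, n = 5), and the log2 fold change was -0.86 (standard error 0.20, 95% interval -1.29 to -0.43, adjusted p = 0.0175). EXOSC4 was the only member whose call held in all 10 fits that left out 1 library (-0.98 to -0.78, adjusted p 0.000835 to 0.0495). The call was lost with GC offsets, where the log2 fold change was -0.30 (adjusted p = 0.0680), and with 1 surrogate variable, where it was -0.47 (adjusted p = 0.117). The end of EXOSC4 overlaps exons of an unnamed gene on the same strand, ENSG00000290230, which is not among the genes counted.

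EXOSC2, the cap subunit with S1 and KH domains that is encoded on chromosome 9 from 130693721 to 130707288 (forward strand, 9 exons), was at 46.7, 50.2, 63.9, 48.3 and 37.2 CPM in Control 1 to 5 and at 32.5, 46.7, 31.0, 35.9 and 27.1 CPM in Induced 1 to 5. Induced 2 lay within the Control range, and the other 4 Induced libraries lay below all of Control. The log2 fold change was -0.51 (standard error 0.19, 95% interval -0.92 to -0.10, adjusted p = 0.0496), just inside the threshold. The call held without Control 5 (-0.61, adjusted p = 0.0109) and without Induced 2 (-0.64, adjusted p = 0.0150). It was lost when any other single library was left out (-0.54 to -0.42, adjusted p 0.0786 to 0.110), with total counts alone (-0.27, adjusted p = 0.187), without a filter (-0.51, adjusted p = 0.0835), with the replicate block (-0.51, adjusted p = 0.0506), with GC offsets (-0.49, adjusted p = 0.0631) and with 1 surrogate variable (-0.16, adjusted p = 0.494).

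The other 6 subunits did not pass the test, and their intervals show how large a change each allowed. EXOSC7, a ring subunit on chromosome 3 (44975241 to 45036066, forward strand, 8 exons), was at 22.8, 19.4, 15.5, 25.5 and 43.0 CPM in Control 1 to 5 and at 37.8, 30.6, 39.6, 36.6 and 45.1 CPM in Induced 1 to 5. Control 1 to 4 lay below all Induced libraries, and Control 5 lay above 4 of them. Its log2 fold change was 0.59 (standard error 0.25, 95% interval 0.04 to 1.13, adjusted p = 0.0755), and without Control 5 it was 0.85 (adjusted p = 0.00211). Scaling by total counts alone also let it pass (0.80, adjusted p = 0.0422), under which the median of all genes shifted from 0.04 to 0.28. EXOSC7 shares with EXOSC3 and EXOSC8 that Control 3 was its lowest and Control 5 its highest Control library.

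EXOSC9, the ring subunit named as an autoantigen in polymyositis and scleroderma overlap disease, lies on chromosome 4 from 121801318 to 121817021 (forward strand, 12 exons). EXOSC9 was at 61.8, 62.5, 69.1, 60.8 and 64.3 CPM in Control 1 to 5 and at 95.5, 75.0, 93.7, 98.4 and 43.4 CPM in Induced 1 to 5. The Control libraries were close together, 4 Induced libraries lay above all of them and Induced 5 lay below all of them. The log2 fold change was 0.35 (standard error 0.21, 95% interval -0.10 to 0.80, adjusted p = 0.177), and without Induced 5 it was 0.51 (adjusted p = 0.0366). Scaled by total counts alone it passed (0.58, adjusted p = 0.0386), and it was 0.07 with GC offsets (adjusted p = 0.793). The last 300 nt overlap exons of CCNA2 on the opposite strand, and CCNA2 had a log2 fold change of -0.06 (adjusted p = 0.782).

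EXOSC1, the third cap protein, lies on chromosome 10 from 97435909 to 97446017 (reverse strand, 8 exons) and was at 36.8, 37.4, 35.5, 38.8 and 40.0 CPM in Control 1 to 5 and at 25.7, 31.4, 30.1, 25.6 and 41.1 CPM in Induced 1 to 5. Here 4 Induced libraries lay below all of Control and Induced 5 lay above all of it. The log2 fold change was -0.29 (standard error 0.16, 95% interval -0.63 to 0.05, adjusted p = 0.141), and without Induced 5 it was -0.42 (adjusted p = 0.0418). Induced 5 thus stood on the far side of the Control range from the other Induced libraries for both EXOSC1 and EXOSC9.

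EXOSC6, a ring subunit encoded by a single exon on chromosome 16 (70246778 to 70251940, reverse strand), was at 135, 134, 113, 139 and 116 CPM in Control 1 to 5 and at 111, 126, 115, 85.7 and 72.9 CPM in Induced 1 to 5. The groups overlapped, 3 Induced libraries lay below all of Control, and the log2 fold change was -0.32 (standard error 0.17, 95% interval -0.69 to 0.05, adjusted p = 0.139). EXOSC5, a ring subunit on chromosome 19 (41386371 to 41397362, reverse strand, 6 exons), was at 15.6 to 20.3 CPM in Control (median 18.3) and 13.6 to 20.7 CPM in Induced (median 15.6). Its log2 fold change was -0.10 (standard error 0.15, 95% interval -0.44 to 0.24, adjusted p = 0.598), and it turned to 0.13 with total counts alone and to 0.34 with GC offsets. EXOSC10, the nuclear exonuclease on chromosome 1 (11066618 to 11099869, reverse strand, 25 exons), was at 57.2, 54.5, 45.8, 74.7 and 73.3 CPM in Control 1 to 5 and at 61.3, 83.4, 70.4, 66.5 and 52.9 CPM in Induced 1 to 5. Its groups overlapped widely, with a log2 fold change of 0.13 (standard error 0.18, 95% interval -0.26 to 0.52, adjusted p = 0.561). The antisense gene EXOSC10-AS1 had a log2 fold change of -0.47 (adjusted p = 0.236).

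The subunits differed in how much they varied among libraries of 1 group. In Control the coefficient of variation was 75.3% for EXOSC3, 48.1% for EXOSC8 and 42.0% for EXOSC7, against a median of 25.6% over all genes tested. It was 4.63% for EXOSC1 and 5.13% for EXOSC9. Counting error alone would give 6.10% for EXOSC3 and 3.69% for EXOSC1, so the spread of EXOSC3 was far above counting error and that of EXOSC1 was close to it. In Induced the order was different, with 20.5% for EXOSC1 (counting error 4.41%), 28.4% for EXOSC9, 33.7% for EXOSC8, 24.8% for EXOSC3 and 13.8% for EXOSC7, against a median of 21.4% over all genes. Control 3 was the lowest Control library for 6 members and the highest for 3, and Control 5 was the highest for 5 (EXOSC1, EXOSC3, EXOSC5, EXOSC7 and EXOSC8) and the lowest for 2 (EXOSC2 and EXOSC4). Over all 10 libraries, the tested genes outside the complex whose level was most like the mean standardised level of the members were GEMIN4 (Pearson's r = 0.974 across 10 libraries), APBB1 (r = 0.922) and MRPS34 (r = 0.918). They were picked for the highest r among the 13038 genes tested, members aside, so high values follow in part from the choice. The mean they were set against pools members that went in opposite directions.

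The plot of changes sets both lines and their difference side by side for each subunit.

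**Figure D2:**
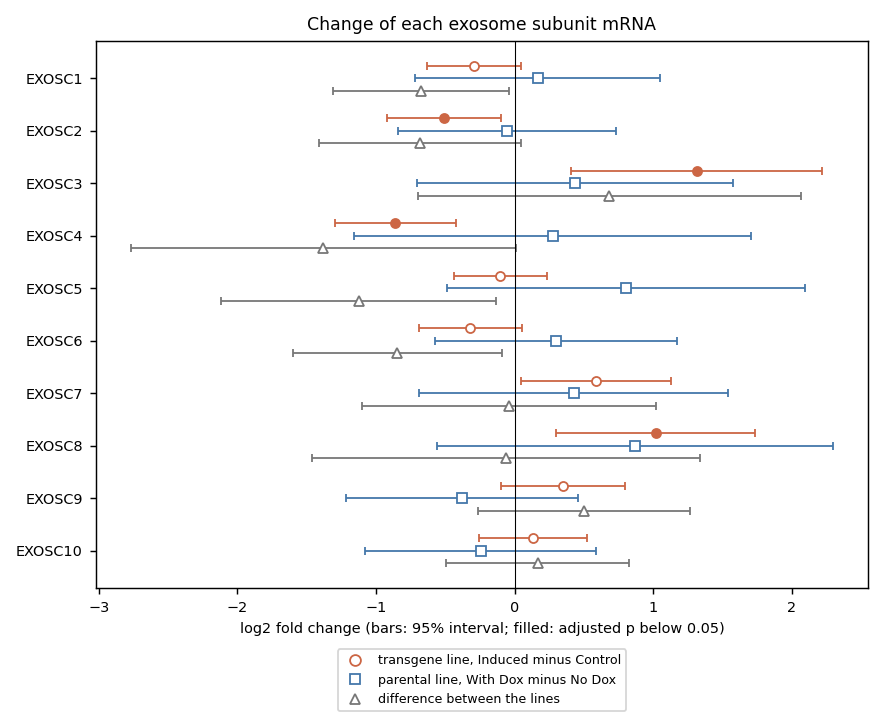
Log2 fold change (horizontal axis) of each exosome subunit (vertical axis) in the transgene line (circles), the parental line (squares) and for the difference between the lines (triangles). Bars are 95% intervals and filled symbols have an adjusted p below 0.05. The filled symbols are EXOSC2, EXOSC3, EXOSC4 and EXOSC8 in the transgene line, and the parental intervals all include 0.

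In the parental line, which asks what doxycycline does without the transgene, no subunit passed the test. The background was 0% of 9124 genes called by edgeR at an adjusted p below 0.05, with 267 genes at an unadjusted p below 0.05, none of them a subunit, and 1 gene called by DESeq2. The subunits' median log2 fold change was 0.29, against -0.01 over all genes. Their counts were small, from 8 to 940 tags per library, and the intervals were wide. EXOSC3 was at 17.4, 41.0 and 27.7 CPM in No Dox 1 to 3 and at 27.9, 64.9 and 23.0 CPM in With Dox 1 to 3 (log2 fold change 0.44, standard error 0.52, 95% interval -0.70 to 1.57). EXOSC8 was at 9.59, 20.2 and 18.1 CPM in No Dox and at 28.6, 51.7 and 6.36 CPM in With Dox (0.87, standard error 0.65, 95% interval -0.56 to 2.30). For both genes the groups overlapped, and a change as large as in the transgene line lay inside the interval.

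EXOSC4 was at 27.0, 63.6 and 40.9 CPM in No Dox 1 to 3 and at 34.1, 15.2 and 112 CPM in With Dox 1 to 3, with a log2 fold change of 0.27 (standard error 0.65, 95% interval -1.16 to 1.71). With Dox 2 was the highest With Dox library for EXOSC3, EXOSC5, EXOSC7 and EXOSC8 and the lowest for EXOSC4, and With Dox 3 was the reverse for all 5 genes. Without With Dox 3 the value for EXOSC4 was -0.88, and without With Dox 2 the value for EXOSC3 was -0.12. EXOSC2 was close in all libraries, at 59.4, 51.7 and 53.1 CPM in No Dox and 57.5, 46.6 and 54.0 CPM in With Dox (log2 fold change -0.05, standard error 0.36, 95% interval -0.84 to 0.73). The remaining log2 fold changes were 0.16 for EXOSC1, 0.80 for EXOSC5, 0.30 for EXOSC6, 0.43 for EXOSC7, -0.38 for EXOSC9 and -0.24 for EXOSC10, with standard errors of 0.38 to 0.59. Adjusted p was 0.997 for every subunit.

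**Figure D3:**
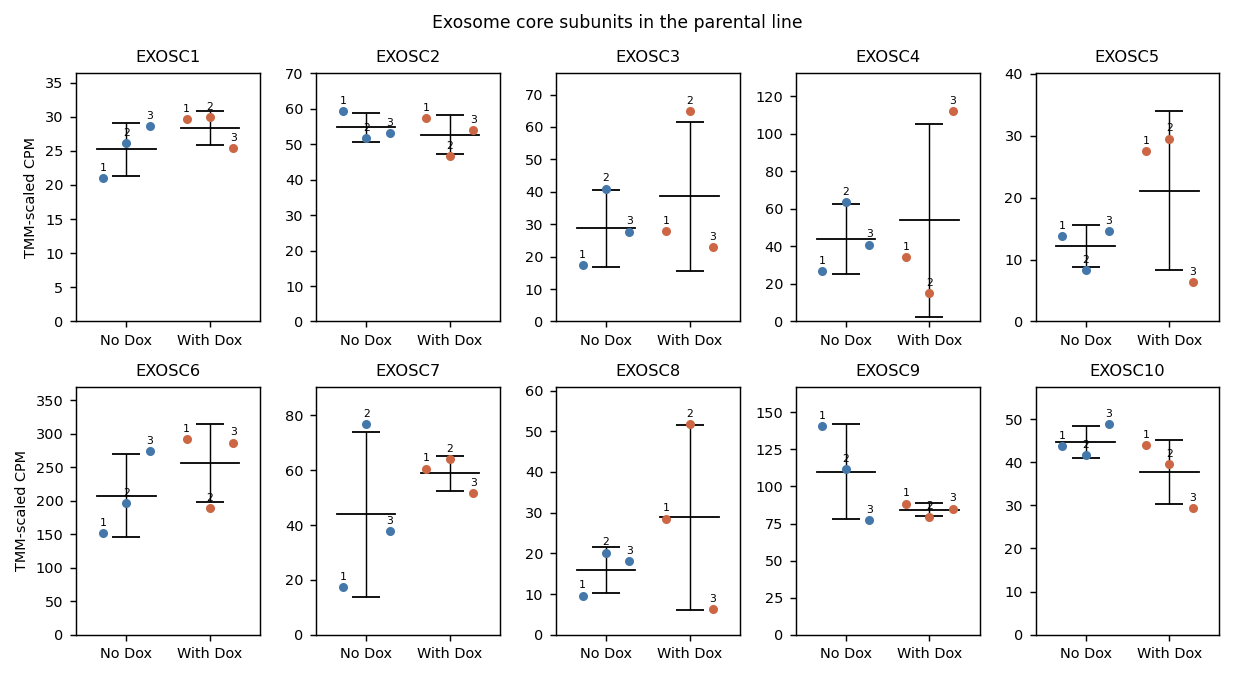
TMM-scaled CPM (vertical axis, from 0) of each exosome subunit in the 3 No Dox (blue) and 3 With Dox (orange) libraries of the parental line, numbered by replicate. Long horizontal lines are means and the bars with caps are ± 1 SD. With Dox 3 is at 112 CPM for EXOSC4 and 6.36 CPM for EXOSC8, and With Dox 2 is at 15.2 and 51.7 CPM.

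The test of whether the lines responded differently passed for no subunit, against 2.98% of 12265 genes (365 genes). At an unadjusted p below 0.05 it found 3 subunits, EXOSC1 (difference of log2 fold changes -0.68, standard error 0.30, adjusted p = 0.165), EXOSC5 (-1.13, standard error 0.47, adjusted p = 0.145) and EXOSC6 (-0.85, standard error 0.36, adjusted p = 0.147). DESeq2 called no subunit either. Among the 4 subunits called in the transgene line, the difference was -0.68 for EXOSC2 (95% interval -1.41 to 0.04), 0.68 for EXOSC3 (-0.70 to 2.06), -1.38 for EXOSC4 (-2.77 to 0.01) and -0.06 for EXOSC8 (-1.46 to 1.34). These intervals include both no difference and a difference as large as the transgene line's own change, so the 4 calls were not shown to be particular to the line with the transgene.

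The 4 calls also depended on processing to different degrees, as the plot of settings shows. EXOSC3, EXOSC4 and EXOSC8 passed with DESeq2's Wald test, DESeq2's size factors, total counts, filterByExpr and no filter, and EXOSC2 with 3 of these 5. With offsets for GC content 0 of the 10 subunits passed, against 23.1% of all genes. With 1 surrogate variable 0 passed, and 1 gene in all. Calls of all genes were split 50.2% higher with TMM and 74.1% higher with total counts alone.

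**Figure D4:**
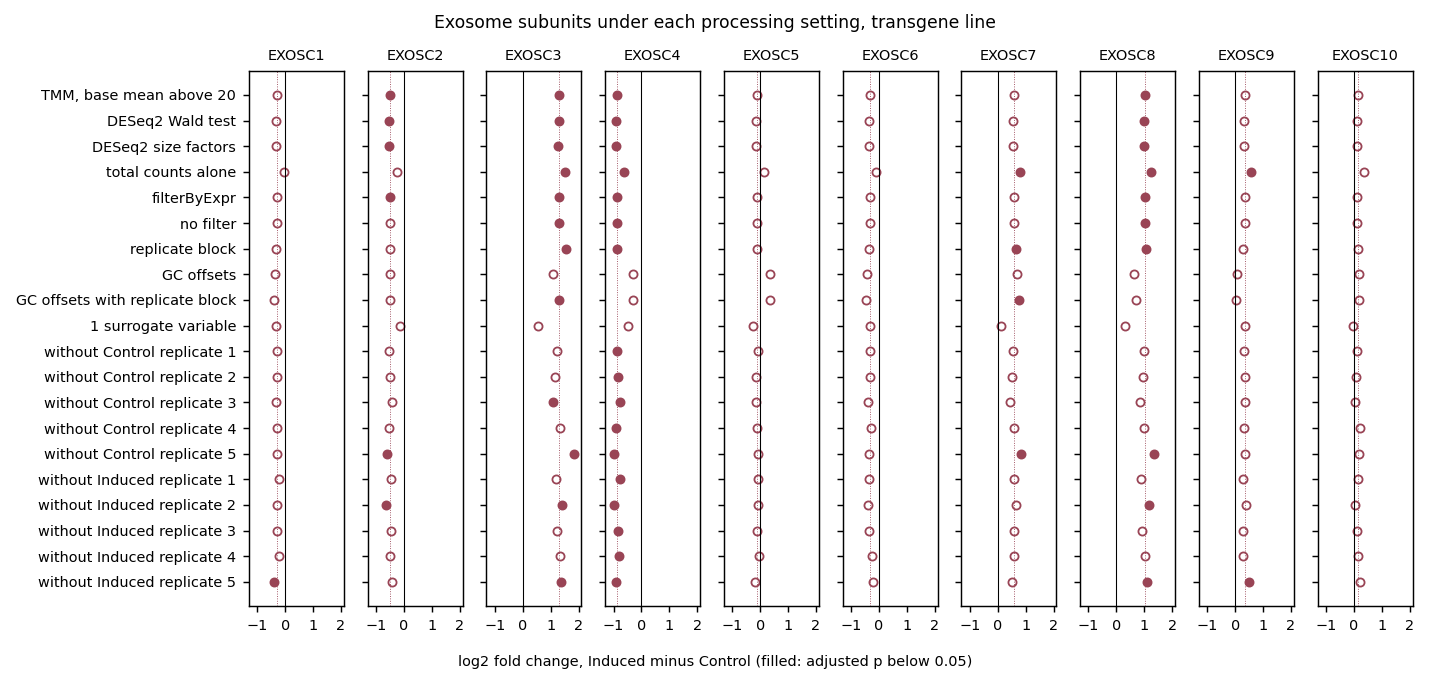
Log2 fold change of each exosome subunit in the transgene line (horizontal axes) under each setting (rows), with filled circles for an adjusted p below 0.05, a dotted line at the TMM value and a solid line at 0. EXOSC4 is filled in every row that leaves out 1 library, and EXOSC3, EXOSC4 and EXOSC8 move toward 0 with GC offsets and with 1 surrogate variable.

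Of 24 genes that work with the exosome or beside it, 11 passed the test in the transgene line, 10 higher and 1 lower, and 13 did not pass, with a median log2 fold change of 0.47. The 11 of 24 called were near the 39.8% of all genes called, with 10 higher beside 20.0% and 1 lower beside 19.8%. ZFP36, 1 of the 10, passed the filter only through its Induced libraries. The number of these genes called fell to 8 with GC offsets and to 0 with 1 surrogate variable. The share of all genes called was 23.1% and 0.00767% in these fits. The number was 5 without Induced 1 and 6 without Induced 4, beside 14.3% and 14.5% of all genes. It was 7 without Control 1, Control 2 or Induced 3, beside 16.6% to 19.6%. Without Induced 2 it was 11 and without Control 5 it was 15, beside 48.8% and 58.5%. In the other fits without 1 library it was 8, beside 25.3% to 28.8%. DIS3, the processive nuclease of the complex, was at 9.32, 7.12, 9.37, 10.3 and 16.4 CPM in Control 1 to 5 and at 25.7, 15.4, 23.2, 21.7 and 12.9 CPM in Induced 1 to 5. Control 5 lay above Induced 2 and Induced 5, as for EXOSC3 and EXOSC8, and the other Control libraries lay below all of Induced. DIS3 rose by 0.91 on the log2 scale (standard error 0.25, adjusted p = 0.0214), and the call was lost without Control 1, Control 2, Induced 1, Induced 3 or Induced 4 (0.79 at the lowest, adjusted p up to 0.0568). DIS3L, its cytoplasmic relative, had a log2 fold change of 0.04 (95% interval -0.39 to 0.47, adjusted p = 0.883).

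Of the 10 nuclear helicases and adaptors, 5 rose, 1 fell and 4 did not pass, beside 20.0% of all genes higher and 19.8% lower. RBM7, which together with ZCCHC8 and the helicase MTREX forms the nuclear exosome targeting complex, rose by 1.80 on the log2 scale (standard error 0.34, adjusted p = 0.0175). ZCCHC8 rose by 0.87 (adjusted p = 0.0175), and MTREX, which unwinds RNA for the nuclear exosome, was at 0.17 (95% interval -0.31 to 0.65, adjusted p = 0.538). TENT4A and TENT4B, poly(A) polymerases that tag RNA for the exosome, rose by 1.51 (adjusted p = 0.0431) and 0.83 (adjusted p = 0.0175), and ZCCHC7, their zinc-knuckle partner, by 0.76 (adjusted p = 0.0175). C1D, a cofactor of EXOSC10, fell, at -0.70 ± 0.24 (standard error) on the log2 scale with an adjusted p of 0.0360. ZCCHC7, TENT4B and ZCCHC8 were the partners with groups that did not overlap, 3 of 24 beside 7.30% of all genes. With 1 library left out, RBM7, ZCCHC7, TENT4B and ZCCHC8 passed in all 10 fits, TENT4A in 2 (without Control 5 or Induced 2; 1.24 to 2.28, adjusted p up to 0.0957) and C1D in 1 (without Control 5; -0.83 to -0.55, adjusted p up to 0.0743). TENT4B, for example, was at 14.7, 16.2, 16.5, 16.2 and 15.2 CPM in Control 1 to 5 and at 25.7, 19.9, 23.5, 34.1 and 37.1 CPM in Induced 1 to 5.

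Among 5 cytoplasmic genes, SKIC3 and SKIC8, the scaffold and a WD-repeat subunit of the SKI complex, rose by 0.72 (adjusted p = 0.0187) and 1.28 (adjusted p = 0.0435). SKIC3 passed in 8 of 10 fits without 1 library (not without Induced 1 or Induced 4; adjusted p up to 0.0513) and SKIC8 in 2 (without Control 5 or Induced 2; 1.14 to 1.94, adjusted p up to 0.0965 in the others). The helicase of that complex, SKIC2, was at -0.32 (95% interval -0.68 to 0.05, adjusted p = 0.135), and HBS1L and PELO did not pass. Of 5 RNA-binding proteins that bring the exosome to mRNA, ZFP36L2, which binds AU-rich elements, rose by 1.81 (adjusted p = 0.0177) and passed in all 10 fits without 1 library. Its relative ZFP36 had 8, 8, 17, 4 and 5 tags in Control 1 to 5 and 67, 2, 53, 38 and 88 tags in Induced 1 to 5. It passed the filter, a base mean above 20, only through its Induced libraries, so its log2 fold change of 2.78 (adjusted p = 0.0195) is given as a description, and Induced 2 was its lowest library of all. KHSRP, ZFP36L1 and ZC3HAV1 did not pass, nor did the neighbouring enzymes DIS3L2 and DCPS. In the parental line 22 of the 24 genes were tested and 0 passed. The difference between the lines passed for 2 of 23 tested, RBM7 (2.07, adjusted p = 0.0478) and C1D (-1.85, adjusted p = 0.0433), beside 2.98% of all genes. With 1 library left out, RBM7 was at 1.88 to 2.40 and passed in 4 of 16 fits (without Control 5, Induced 2, No Dox 3 or With Dox 2; adjusted p up to 0.139 in the others). C1D was at -1.996 to -1.41 and passed in 3 of 16 (without Control 5, Induced 2 or With Dox 2; adjusted p up to 0.147 in the others).

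**Figure D5:**
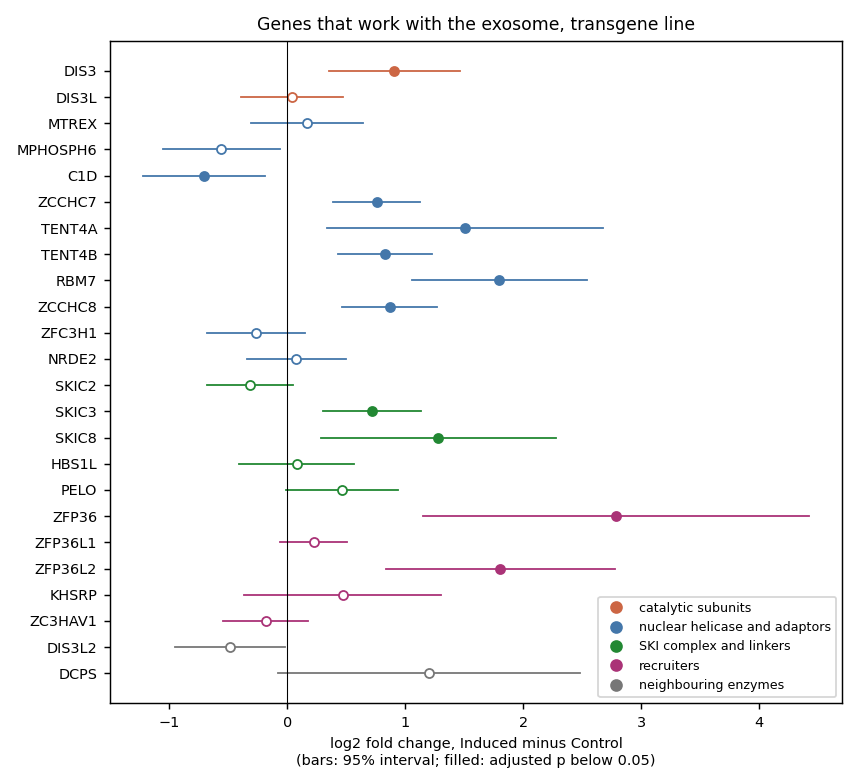
Log2 fold change (horizontal axis) of the 24 genes that work with the exosome or beside it in the transgene line, coloured by role, with 95% intervals as bars and filled circles for an adjusted p below 0.05. Of the 11 filled circles, 10 lie to the right of 0 and C1D lies to the left.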

How the data were processed

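QuantSeq REV libraries of cytoplasmic RNA were analysed from 16 samples. The files the authors deposited hold raw tag counts for Ensembl genes from Lexogen's QuantSeq REV pipeline for GRCh38. The aligner, annotation release and use of strand are not given in the sources used here. The 92 spike-in entries, all 0, and 5 summary entries were left out. Names and coordinates came from GENCODE release 44, which named 56104 of 60107 genes. Counts were scaled by TMM and tested with edgeR 4.0.16 (quasi-likelihood, Benjamini-Hochberg, base mean above 20, adjusted p below 0.05, n = 5 or 3 a group) in R 4.3.3, after testing on simulated data. The fits within each line used that line alone. CPM is per library, with the SD over libraries, and a standard error is the log2 fold change over the root of the test statistic. Alternatives used DESeq2 1.42.0 and sva 3.50.0, other scalings and filters, a replicate block, GC offsets (lowess span 0.5) and each library left out. Figures used Python 3.11.15. The subunits and lists were chosen with earlier results of these data known. Named were all subunits, RNMT, DIS3, DIS3L, MTREX, SKIC2, every partner gene that passed, and the 3 genes most like the members' mean level, besides overlapping genes and markers. The closest replicate pair, Induced 1 and 3, differed by more than sampling noise (chi-square over its degrees of freedom 4.55), so all libraries were kept. Whether equal replicate numbers mark a shared culture is not stated, and the p-values measure only the spread between these libraries.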

Additional observations from a re-analysis of the deposited data

Results flagged for a closer look

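Of 50 groups of 5 libraries checked (each named subunit, partner gene and RNMT, in Control and in Induced), 5 held a library far from the rest, and chance gives about 1 in 20. Control 5 was the high library for 4 of them. It was at 8.40 CPM for ZCCHC7 (other Control libraries 5.48 to 6.33), 19.3 CPM for TENT4A (1.33 to 6.13), 4.68 CPM for RBM7 (2.28 to 2.89) and 39.7 CPM for SKIC8 (9.22 to 10.7). Induced 2 was the low library for ZCCHC8, at 13.4 CPM against 18.2 to 19.6 in the other Induced libraries. No group of a subunit held such a library.

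Among the subunits, the partner genes and RNMT, the response differed between the lines by the test of the difference for 3 genes. The difference of log2 fold changes was 2.43 for RNMT (adjusted p = 0.0258), 2.07 for RBM7 (adjusted p = 0.0478) and -1.85 for C1D (adjusted p = 0.0433). The log2 fold change of C1D was -0.70 with the transgene and 0.91 in parental cells, where it did not pass the test. These 3 calls depended on the libraries used. With 1 library left out, RNMT passed in 8 of 16 fits (2.31 to 2.77, adjusted p up to 0.124), RBM7 in 4 (1.88 to 2.40, adjusted p up to 0.139) and C1D in 3 (-1.996 to -1.41, adjusted p up to 0.147). No gene at all was called for the difference without Control 1, 2 or 4, Induced 1, 3 or 4, No Dox 1 or With Dox 1. With filterByExpr RNMT passed (adjusted p = 0.0408), and RBM7 (adjusted p = 0.0720) and C1D (adjusted p = 0.0734) did not.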

How the results depend on the processing

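In the transgene line the median over all genes moved from 0.04 with TMM to 0.28 with total counts alone, and the share of calls that were higher was 50.2% and 74.1%. With total counts alone 4 subunits were called higher and 1 lower, and EXOSC5 was at 0.13. Without a filter 1 subunit was lower. Using the replicate block, 5190 genes were called, 3 subunits higher (EXOSC7 gained, 0.66, adjusted p = 0.0354) and 1 lower (EXOSC2 lost, adjusted p = 0.0506). Libraries with the same number had a mean correlation of 0.026 in the transgene line (-0.37 to 0.63) and -0.060 in the parental line (-0.42 to 0.24). In these lines 1 of 5 and 1 of 3 libraries correlated best with its own number. So few pairs cannot show whether equal numbers mark a shared culture. With GC offsets 3018 genes were called and 0 subunits, 0 higher and 0 lower, and EXOSC5 was at 0.34. With GC offsets and the replicate block 2 subunits were called, EXOSC3 and EXOSC7, 0 lower, EXOSC5 was at 0.36, and 62.2% of calls were higher. With 1 surrogate variable 1 gene was called, 0 subunits (0 higher, 0 lower) and 0 partner genes, and EXOSC10 was at -0.032. Leaving out each library gave 1869 (Induced 1) to 7604 (Control 5) genes called, 1 to 5 subunits (0 to 3 higher, 1 to 2 lower) and 5 to 15 partner genes. The cause of these changes was not tested.

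In the parental line DESeq2 called 1 gene and the fit without a filter 10, EXOSC2 was at 0.012 without a filter and EXOSC4 at -0.026 with the replicate block. Leaving out each library gave 0 to 2 genes called, and values of -0.12 to 0.082 for EXOSC2, -0.12 to 0.86 for EXOSC3 and -0.88 to 0.80 for EXOSC4. For the difference between the lines, 365 genes became 1478 with DESeq2, 236 with DESeq2's size factors, 3 with filterByExpr, 150 without a filter, 222 with the replicate block, 234 with GC offsets and the block, 866 with 1 surrogate variable (1 subunit, EXOSC5, -1.38, adjusted p = 0.0301), and 0 to 2291 when a library was left out. EXOSC7 and EXOSC8, near 0 there, turned to 0.028 and 0.029 with DESeq2, 0.028 and 0.018 with its size factors, 0.49 and 0.41 with total counts alone, 0.13 and 0.082 with filterByExpr, and 0.14 and 0.088 without a filter. EXOSC8 was 0.22 with the replicate block and EXOSC7 0.068 with GC offsets, and leaving out each library gave -0.56 to 0.49 for EXOSC7 and -0.50 to 0.76 for EXOSC8. Apart from libraries left out, 351 values were compared, of which 289 kept their direction and side of the threshold (counts within 1.5 times), 25 counts moved further, 18 values reversed, 14 lost a call and 5 gained one. The parental line had fewer libraries (3 a group), 1473286 to 3214808 counts each and a common coefficient of variation of 0.444 against 0.320, and which of these bears on its lack of calls was not tested.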
